A study of Mus musculus with 3 samples.

Results

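The BCL2 family comprises the proteins that decide whether the outer membrane of the mitochondrion stays intact or is opened to start cell death. The genes described here are the 10 members Bcl2, Bcl2l1, Mcl1, Bak1, Bcl2l11, Bbc3, Pmaip1, Bid, Bad and Bmf, of 19938 named genes on the array. They were chosen by symbol: every probe set annotated with exactly 1 gene symbol equal to a listed member was taken, and each member had 1 such probe set. Levels were measured in thymocytes, immature T cells that develop in the thymus, from 3 mice on Affymetrix MoGene 1.0 ST arrays. The labels number the mice 92, 103 and 106. All have the genotype wt on a background of FVB mixed with C57BL6, and for all the labels give 0.3 µg RNA and a RIN of 3, a low RNA integrity. A T cell lymphoma entry under disease state stands in the labels of these samples too, although titles and genotypes read wild type. The labels name no age, sex, thymocyte stage or sort, so the cells are taken as a mixture of stages. Lymphoma samples were not analysed here, and with a single group no comparison between conditions was possible.

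In this family, anti-apoptotic proteins bind and restrain both the pore-forming effectors and the BH3-only proteins, and BH3-only proteins in turn sense stress and either block the anti-apoptotic proteins or activate the effectors. Thymocytes depend on this balance: most die by neglect or by negative selection, and the few that are positively selected survive. BIM, the product of Bcl2l11, is known for its part in the deletion of self-reactive thymocytes, and BCL-XL, the product of Bcl2l1, for the survival of double-positive thymocytes, which carry both CD4 and CD8.

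All 9 measured genes of the T cell identity list were above background on all 3 arrays, against 61.8% of all named genes. The count does not identify the cells by itself, since 13 of 14 macrophage and dendritic cell markers were above background too. Cd3g, a CD3 chain, read 13.30 ± 0.04 (log2 level, SD, n = 3). Background was set per array at the 95th percentile of 1207 olfactory, vomeronasal and trace amine receptor genes, and lay between 5.91 and 6.10. The array of mouse 92 stood apart from the others. Of the 12 neutrophil markers measured, 6 were above background on all 3 arrays, and all 6 were lowest in mouse 92. The summed level of all 12, on the log2 scale, was 9.72, 11.90 and 11.60 in mice 92, 103 and 106. The summed level of the 11 B cell markers was 10.17, 11.21 and 10.88, and that of the 12 markers of double-negative thymocytes, the earliest stage, was 11.50, 11.99 and 12.12. Xist, the RNA that coats an inactive X chromosome, was at 5.30, 11.85 and 11.67, and the Y-linked Eif2s3y at 10.42, 3.59 and 3.55. This is the pattern of a male in mouse 92 and of females in mice 103 and 106, though the labels name no sex. Differences between mouse 92 and the other mice thus coincide with this pattern, and the part of sex in them was not tested. In whole-population RNA, fewer cells of a type and less RNA per cell cannot be told apart.

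All 10 members were above background on each of the 3 arrays, against 61.8% of all named genes. The spread between mice of none of the 10 stood out from that of genes at a similar level (limma, Benjamini-Hochberg adjusted p from 0.996 to 0.999), against 0.225% of the 13314 genes tested, and none had an unadjusted p under 0.05, against 4.84%. The SD between mice lay between 0.015 for Bbc3 and 0.24 for Bcl2l11 on the log2 scale, with a median of 0.15 over the members and 0.13 over all genes tested. The range between the highest and the lowest mouse had a median of 0.28 over the members and 0.25 over all genes tested. For 7 of the 10 members the SD exceeded the SD that the fit assigns to their level, against 39.2% of the genes tested; 10 genes are too few to read a difference from these shares. A member would have needed an SD between 0.66 and 0.81 to be called. Smaller spreads between the mice than that were not detectable with 3 arrays. Probes differ in affinity, so levels of different genes are not ranked against each other.

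**Figure D1:**
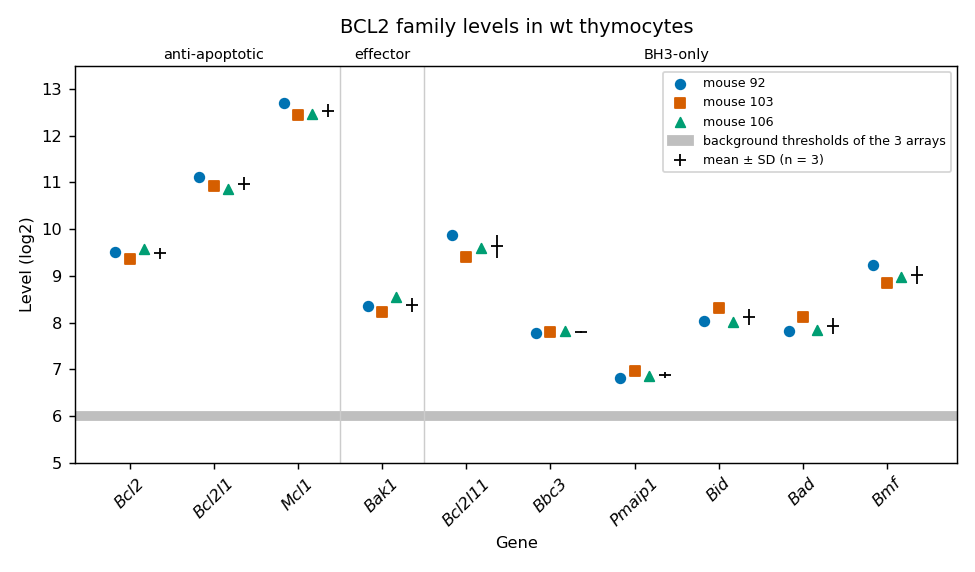
Log2 level of each of the 10 members (x axis, by class) on the arrays of mice 92 (circles), 103 (squares) and 106 (triangles), with the mean and SD of the 3 mice as a black bar and the background thresholds of the 3 arrays, 5.91 to 6.10, as a grey band. Every point lies above the band, and Pmaip1 lies closest to it.

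**Figure D2:**
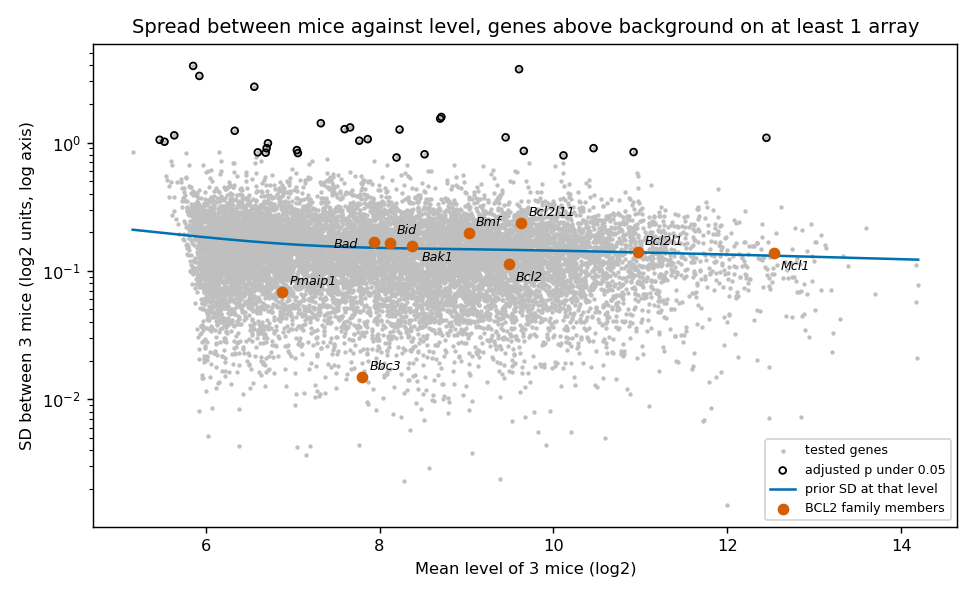
SD between the 3 mice (y axis, log2 units drawn on a log axis) against mean log2 level (x axis) for 13314 genes above background on at least 1 array. Grey points are tested genes, open circles the 30 genes with an adjusted p under 0.05, the line the prior SD at each level and orange points the 10 members, none of which lies near the open circles.

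Among the anti-apoptotic genes, Mcl1 and Bcl2l1 were highest in mouse 92 and Bcl2 was not. Mcl1 encodes MCL1, a short-lived survival protein that lymphocytes need at several stages. The Mcl1 probe set (10494306) read 12.69, 12.44 and 12.47 in mice 92, 103 and 106, with a mean of 12.53 ± 0.14 (log2 level, SD, n = 3). Mouse 92 was the high sample, and mice 103 and 106 lay within 0.03 of each other and could not be put in order. Its range was 1.19-fold, and the level was between 6.34 and 6.78 above the background threshold of its array. The variation of Mcl1 did not pass the test (adjusted p = 0.996, limma).

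Bcl2l1 (probe set 10488655) showed the same high sample. Its log2 level was 11.13 in mouse 92, 10.92 in mouse 103 and 10.86 in mouse 106, a mean of 10.97 ± 0.14 (SD, n = 3) and a range of 1.20-fold (adjusted p = 0.996, limma). Without mouse 92 the difference between the remaining mice was 0.06. The log2 difference between Mcl1 and Bcl2l1 on an array moved by no more than 0.09 between the mice. The size of that difference depends on the probes, and its change between mice may do so too, which was not tested. This pair was singled out after its values were seen.

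Bcl2, the founding survival gene of the family, is known to be low in double-positive and higher in single-positive thymocytes, the mature cells that keep CD4 or CD8. Its probe set (10357043) read 9.51, 9.36 and 9.58 in mice 92, 103 and 106, with a mean of 9.48 ± 0.11 (log2 level, SD, n = 3). Mouse 103 was the low sample and mouse 106 the high one, 1.16-fold apart, and 40.9% of all genes tested had a smaller range. The median deviation from the 3-mouse mean was 0.16, -0.09 and -0.07 over the 3 anti-apoptotic genes in mice 92, 103 and 106.

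The effector class has 1 member here. BAK, the product of Bak1, sits in the outer mitochondrial membrane and forms pores in it once activated. The Bak1 probe set (10449303) read 8.35, 8.24 and 8.54 in mice 92, 103 and 106, a mean of 8.38 ± 0.16 (log2 level, SD, n = 3). Mouse 106 was the high sample and mouse 103 the low one, 1.24-fold apart, and 63.3% of all genes tested had a smaller range. The variation did not pass the test (adjusted p = 0.996, limma).

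The 6 BH3-only genes fell into unlike patterns, described here after their values were seen. Bcl2l11 and Bmf were highest in mouse 92 and lowest in mouse 103, Bid, Bad and Pmaip1 were highest in mouse 103, and Bbc3 was nearly level. Their median deviation from the mean was -0.04, 0.04 and -0.03 in mice 92, 103 and 106. The deposited values put mouse 92 highest and mouse 103 lowest for 3 of the 10 members, Bcl2l11, Bmf and Mcl1, and for 17.7% of all genes tested. For Mcl1 the lower place rests on the 0.03 between mice 103 and 106, and after quantile or cyclic loess normalisation its lowest mouse was no longer mouse 103.

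The sequences upstream of Bcl2l11 and Bmf are shown because these genes shared their high and low samples and had the largest ranges in the deposited values. That of Mcl1 is shown beside them as a survival gene with the same high sample. Each run is the 250 bases before the most upstream start site that RefSeq gives the gene in GRCm38.p6, on the strand of the gene. Capitals mark GC boxes (GGGCGG on either strand), CCAAT boxes (CCAAT on either strand) and the core of FOXO sites (TGTTTAC on either strand). The windows are chr2:128125788-128126037 on the plus strand for Bcl2l11, chr2:118549687-118549936 on the minus strand for Bmf and chr3:95658471-95658720 on the plus strand for Mcl1.
Bcl2l11: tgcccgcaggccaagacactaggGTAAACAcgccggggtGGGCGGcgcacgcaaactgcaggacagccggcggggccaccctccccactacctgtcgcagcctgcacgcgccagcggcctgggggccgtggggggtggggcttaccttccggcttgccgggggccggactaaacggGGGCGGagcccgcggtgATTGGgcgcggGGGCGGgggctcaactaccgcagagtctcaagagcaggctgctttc
Bmf: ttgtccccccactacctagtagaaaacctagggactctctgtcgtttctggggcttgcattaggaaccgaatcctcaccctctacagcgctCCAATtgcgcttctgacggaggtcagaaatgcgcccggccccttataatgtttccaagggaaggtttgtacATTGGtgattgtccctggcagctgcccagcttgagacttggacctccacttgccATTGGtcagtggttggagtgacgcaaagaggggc
Mcl1: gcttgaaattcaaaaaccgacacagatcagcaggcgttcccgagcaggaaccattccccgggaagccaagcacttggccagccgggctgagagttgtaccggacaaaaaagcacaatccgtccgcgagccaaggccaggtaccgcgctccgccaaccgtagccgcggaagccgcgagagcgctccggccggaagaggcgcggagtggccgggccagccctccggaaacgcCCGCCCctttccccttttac
The windows were unlike in these letters. That of Bcl2l11 held 3 GC boxes, 1 CCAAT box and 1 FOXO core, that of Bmf 0 GC boxes and 3 CCAAT boxes, and that of Mcl1 1 GC box and 0 CCAAT boxes. They also differed in CpG dinucleotides, with 24 for Bcl2l11, 8 for Bmf and 26 for Mcl1, where the median over 32851 RefSeq windows of the same length was 6. Over all start sites of 9 members, 17 windows in all, a GC box was found for Bad, Bbc3, Bcl2, Bcl2l11, Bid and Mcl1 (6 of 9 genes; 32.7% of all windows hold one). A CCAAT box was found for Bad, Bbc3, Bcl2l11 and Bmf (4 of 9 genes; 33.8% of all windows). The FOXO core was found for Bbc3 and Bcl2l11 (3.17% of all windows), both of which are known targets of FOXO3. The letters TATAAA, read on the gene's strand, were in 0 of the 17 windows and in 7.59% of all windows. Genes with several start sites have several chances of a match, and a match is not a binding site. The window of Pmaip1 was not used here.

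BIM and BMF, the products of Bcl2l11 and Bmf, are both held at the cytoskeleton by dynein light chains until stress releases them. Bcl2l11 (probe set 10475866) read 9.88 in mouse 92, 9.41 in mouse 103 and 9.61 in mouse 106, a mean of 9.63 ± 0.24 (log2 level, SD, n = 3). The 3 values were spread out, with mouse 92 1.39-fold above mouse 103, a larger range than that of 87.8% of the genes tested. This was the largest range of the 10 members (after quantile normalisation it was 0.37 on the log2 scale, as was that of Bad), and it did not pass the test (unadjusted p = 0.117, adjusted p = 0.996, limma). Without mouse 106 the unadjusted p of Bcl2l11 was 0.0372 and the adjusted p 0.826 (limma), and without mouse 92 the remaining mice differed by 1.15-fold.

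Bmf (probe set 10486112) kept the same order at 9.24, 8.85 and 8.98 in mice 92, 103 and 106, with a mean of 9.02 ± 0.20 (log2 level, SD, n = 3). Mouse 92 was again the high sample, 1.31-fold above mouse 103 (adjusted p = 0.996, limma). The log2 difference between Bcl2l11 and Bmf moved by 0.08 between the mice, against ranges of 0.47 and 0.39 for the genes themselves. The pair was singled out after its shared high and low mice were seen, which favours a small change. Without mouse 92 the range of Bmf was 1.10-fold.

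Bid and Bad showed another order, with mouse 103 alone on the high side. BID links death receptors at the cell surface to the mitochondrion after cleavage by a caspase. Bid (probe set 10547531) read 8.04, 8.31 and 8.01 in mice 92, 103 and 106, a mean of 8.12 ± 0.17 (log2 level, SD, n = 3) and a range of 1.23-fold. BAD is kept inactive by kinases of the growth factor pathway, AKT among them. Bad (probe set 10461017) read 7.83, 8.13 and 7.85 in the same order of mice, a mean of 7.93 ± 0.17 (SD, n = 3) and also a range of 1.23-fold. For both genes mice 92 and 106 lay within 0.03 of each other, and neither passed the test (adjusted p = 0.996 for each, limma). Their log2 difference moved by 0.04 between the mice. The difference between Bcl2l11 and Bid, which ran opposite ways in mouse 103, moved by 0.74, or 1.68-fold; these pairs too were singled out after their values were seen.

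PUMA and NOXA, the products of Bbc3 and Pmaip1, are induced by p53 after DNA damage, and NOXA binds MCL1 in particular. Bbc3 (probe set 10550290) read 7.79, 7.81 and 7.81 in mice 92, 103 and 106, a mean of 7.80 ± 0.015 (log2 level, SD, n = 3). The mice were within 1.02-fold of each other in the deposited values, where 0.751% of the genes tested had a smaller range. That range, 0.03 on the log2 scale, was 0.09 after quantile and 0.05 after cyclic loess normalisation. Pmaip1 (probe set 10456357) read 6.83, 6.96 and 6.86, a mean of 6.88 ± 0.07 (SD, n = 3) and a range of 1.10-fold. It was the member closest to background, between 0.86 and 0.91 above the threshold of each array. When the cutoff was raised to the 99th percentile, 9 of the 10 members were above it on all arrays, and Pmaip1 was not.

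**Figure D3:**
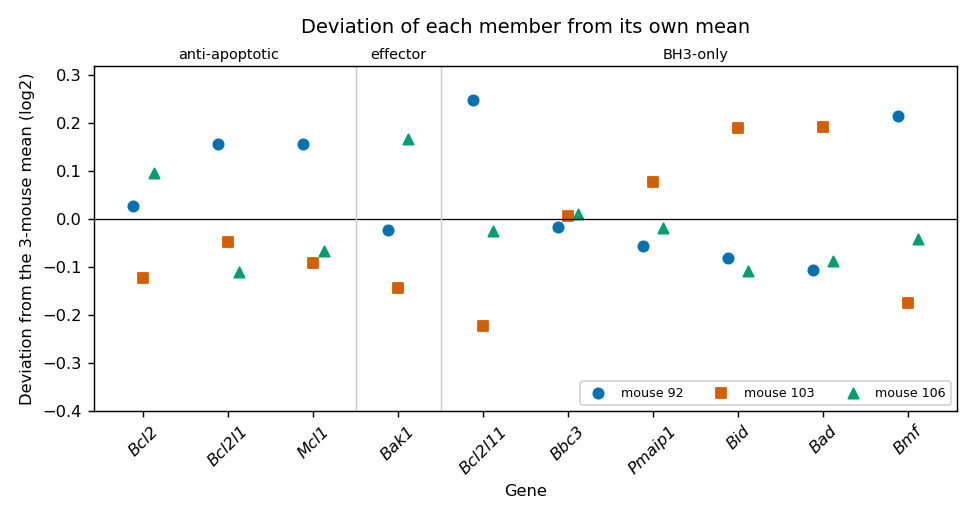
Deviation of each member from its own 3-mouse mean (y axis, log2) by gene and class (x axis), for mice 92 (circles), 103 (squares) and 106 (triangles). Bcl2l1, Mcl1, Bcl2l11 and Bmf stand highest in mouse 92, Bid and Bad stand apart in mouse 103, and Bbc3 lies within 0.02 of its mean in each mouse in the deposited values.

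Counted by mouse, 4 of the 10 members were highest in mouse 92 (37.4% of all genes tested), 3 in mouse 103 (39.1%) and 3 in mouse 106 (23.5%). The lowest sample was mouse 92 for 3 members (35.1%), mouse 103 for 5 (28.3%) and mouse 106 for 2 (36.6%). Between mice 92 and 106 all 10 members differed by less than 1 SD of that difference over all genes tested, which was 0.27. At least 76.7% of all genes tested did so too. Between mice 92 and 103 this held for 8 members (SD 0.30) and at least 75.6% of genes, Bcl2l11 and Bmf being the other members. Between mice 103 and 106 it held for 7 (SD 0.22) and at least 71.4% of genes, with Bak1, Bid and Bad the others. With 10 genes no difference can be read from these shares.

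The rest of the pathway was described with 83 genes in 6 lists, of which 72 were measured and 67 were above background on all arrays. None of the 68 tested varied between the mice by the limma test, and 1, E2f1, had an unadjusted p under 0.05. Among 12 other BCL2 family genes, 9 were above background on all arrays. Bcl2l10 (4.43 ± 0.14) and Bcl2l15 (4.94 ± 0.05) were above it on 0 arrays and Bcl2l14 (6.06 ± 0.24; log2 level, SD, n = 3) on 2. Hrk, a BH3-only gene, had the largest range among the 9 genes of this list above background on all arrays, reading 8.26 in mouse 92, 8.69 in mouse 103 and 8.39 in mouse 106 on the log2 scale (adjusted p = 0.996, limma). Mouse 103 was its high sample, as it was for Bid and Bad. Bax, the partner of Bak1, was not analysed here.

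All 15 measured genes of the apoptosome and caspase list were above background, which covers the machinery that acts once the mitochondrion has been opened. Vdac3, a channel of the outer mitochondrial membrane, had its largest range, at 9.76, 9.33 and 9.26 in mice 92, 103 and 106 (adjusted p = 0.996, limma), with mouse 92 as the high sample. All 4 inhibitor of apoptosis genes were above background too. Birc2, which encodes a ubiquitin ligase of that group, read 8.73, 8.27 and 8.38 and was likewise highest in mouse 92 (adjusted p = 0.996, limma).

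The 18 measured regulators of the MCL1, BIM and BAD proteins and the 12 transcription factors of the family were above background without exception. Gsk3b, a kinase that marks MCL1 for degradation, had the largest range of the regulators, at 10.45, 10.12 and 10.36 in mice 92, 103 and 106. E2f1, a cell cycle factor that can drive transcription of BH3-only genes, had the largest range of the factors, at 7.83, 8.16 and 8.48 (unadjusted p = 0.0370, adjusted p = 0.951, limma). Of 11 p53 targets outside the family, 9 were above background on all arrays, and Eda2r (4.07 ± 0.15) and Perp (5.51 ± 0.22; log2 level, SD, n = 3) were above it on none. Tnfrsf10b, a death receptor gene, had the largest range of these targets, at 6.08, 6.49 and 6.52. The SDs of Bbc3 and Pmaip1 in the deposited values were 0.015 and 0.07. Those of the 9 tested targets ran from 0.10 to 0.25, on both sides of the median of 0.13 over all genes tested. This comparison was made after the values were seen, Pmaip1 lies close to background, and the difference was not tested.

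**Figure D4:**
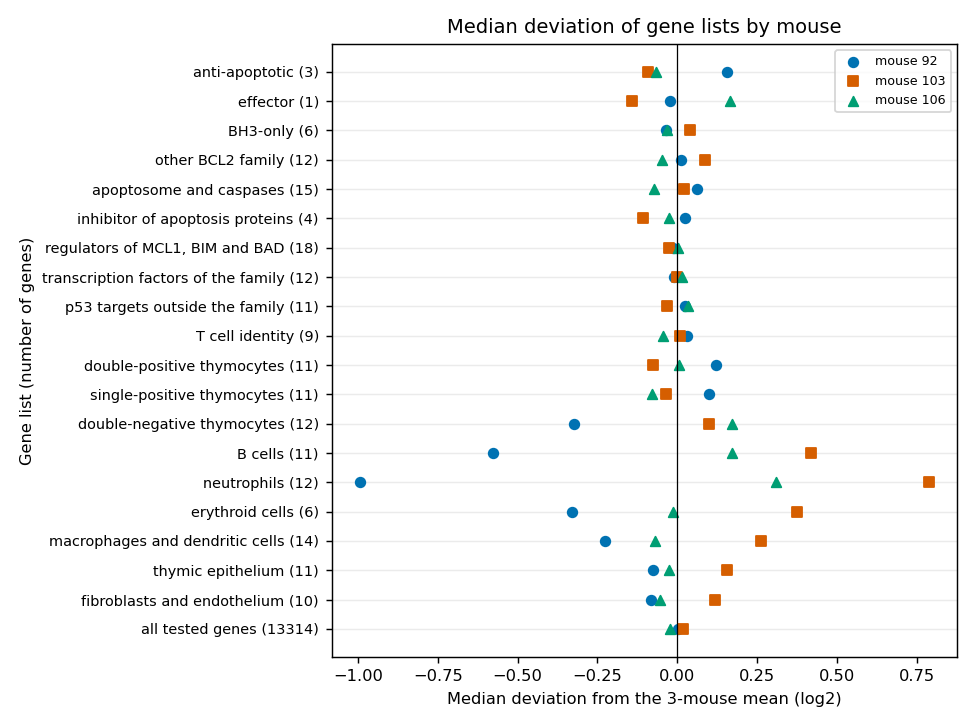
Median deviation from the 3-mouse mean (x axis, log2) of the 3 classes of members, the 6 pathway lists, the 10 cell type marker lists and all 13314 genes tested (y axis, number of genes in brackets), for mice 92 (circles), 103 (squares) and 106 (triangles). The neutrophil and B cell markers spread widest, from -0.99 and -0.58 in mouse 92 to 0.79 and 0.42 in mouse 103, while the member and pathway lists stay within 0.17 of zero.

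Cell type markers moved between the same mice. The median deviation of the 11 double-positive markers was 0.12, -0.08 and 0.00 in mice 92, 103 and 106. That of the 11 single-positive markers was 0.10, -0.03 and -0.08. Both medians were highest in mouse 92, as were the levels of Mcl1, Bcl2l1, Bcl2l11 and Bmf. Gene by gene, 9 of the double-positive markers had mouse 92 as their high sample and 2 had mouse 103. The single-positive list was mixed, with 5, 4 and 2 markers highest for mice 92, 103 and 106. The 10 double-positive and 11 single-positive markers above background on all arrays included Satb1 at 13.70 ± 0.07 and Gimap6 at 11.42 ± 0.22 (log2 level, SD, n = 3). The double-negative markers, with Notch1 at 10.57 ± 0.32, had median deviations of -0.32, 0.10 and 0.17. Mouse 103, the high sample of Bid and Bad, was also highest in the median of the neutrophil (0.79), B cell (0.42), erythroid (0.37), macrophage and dendritic cell (0.26), thymic epithelial (0.16) and fibroblast and endothelial (0.12) markers. In the same order these medians were -0.99, -0.58, -0.33, -0.23, -0.08 and -0.08 in mouse 92. They were 0.31, 0.17, -0.01, -0.07, -0.02 and -0.05 in mouse 106, each above that of mouse 92. Bid read 8.04 and 8.01, and Bad 7.83 and 7.85, in mice 92 and 106. Of these marker lists, 6 of 12, 8 of 11, 5 of 6, 13 of 14, 8 of 11 and 5 of 10 genes were above background on all arrays. The genes of these lists that varied by the limma test were S100a8, S100a9, Ngp, Lcn2, Ltf and Mmp8 of the neutrophils, Cr2 of the B cells and Alas2 of the erythroid cells. Mmp8 was above background on 1 array and Cr2 on 2, so both entered the test only through mice in which they read higher. The part of these cell types in the levels of the BCL2 family was not tested. Without mouse 92, the differences left between mice 103 and 106 were 0.31 for Bak1, 0.30 for Bid and 0.28 for Bad on the log2 scale, against 0.03 for Mcl1.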

How the data were processed

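The deposited table holds log2 levels of 35557 probe sets on 3 arrays, made by the authors with Affymetrix Expression Console, per the submitters' processing notes. The log2 scale was inferred from the values, 1.76 to 14.96. The software's version, and any background correction, summarisation or normalisation, are not stated there, and the authors' normalisation may have used other arrays. Of the probe sets, 21789 had 1 symbol in the platform annotation, 12147 were not in it and 1621, with several symbols, stayed unnamed. Probe sets of a gene were averaged. Members and lists were chosen with earlier results of these data known.

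The limma package (3.58.1, R 4.3.3) tested variation over genes above background on at least 1 array: an intercept was fitted, and each variance, on 2 degrees of freedom, was divided by a trended prior variance that was not robust, on 10.4, as an upper-tail F ratio with Benjamini-Hochberg adjustment at 0.05. The test was tried on data simulated from its own prior, with genes shifted in 1 mouse. It called 0 of 100 genes shifted by 1 on the log2 scale and 97 of 100 shifted by 2. A 2-fold shift in 1 mouse was thus missed there. The labels do not say how samples were taken, so that p-values cover only the spread among the 3 samples, which may be technical, and 3 arrays limit the precision. With 3 mice no correlations across samples were computed.

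All members were named. Of each pathway list, genes not above background on all arrays, genes that varied and the largest range among genes above background were named. Of each marker list, genes that varied were named. For the T cell identity and thymocyte stage lists the gene with the highest mean level was named as well. Normalisations, background rules, prior variances, filters and the removal of each mouse were tried as alternatives. Promoter windows came from RefSeq, GRCm38.p6.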

Additional observations from a re-analysis of the deposited data

How the results depend on the processing

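The count of members above background was 9 or 10 under every alternative run. Pmaip1 was the exception at a 99th percentile cutoff and at the receptor median plus 3 median absolute deviations. This count could not fall with a mouse left out or with 1 array required, so those runs are no check of it. The count of varying members was 0 under all 12 alternatives, with the smallest adjusted p of any member between 0.826 and 0.998 (limma). The count over all genes was 30, and 18 after quantile and after cyclic loess normalisation, 0 with a robust prior and degrees of freedom set per gene (no member under an unadjusted 0.05), and 58, 48 and 84 without mice 92, 103 and 106. The 70 mean levels recomputed for single members moved by at most 0.12. For 30 of them 1 mouse was left out, which cannot move a mean of 3 by its SD. The other 40, with all mice, moved by at most 0.01. Among those, centring on the median and taking the highest of 1 probe set leave the mean unchanged by construction. The order of the mice was less firm: after quantile and cyclic loess normalisation Mcl1 and Bid had another lowest mouse, and after quantile normalisation Bbc3 had another highest mouse, its range was 0.09 and the range of Bcl2l11 0.37. The pathway count of 67 lay between 67 and 68 with 1 mouse left out, where it could not fall. No paired analysis was possible because there is 1 group. Background correction could not be varied from summarised values.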
